A study of Mus musculus with 9 samples.

Results

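The genes of the mitochondrial respiratory chain and ATP synthase were followed in back skin RNA of mice treated with imiquimod (IMQ) and with Longkui Yinxiao soup (LYS). They were chosen by name, as every gene whose symbol starts with mt-, Nduf, Uqcr, Sdh followed by a, b, c or d, Cox4i, Cox5, Cox6, Cox7, Cox8 or Atp5, leaving out names that end in -ps or hold Gm. This gave 113 of the 29205 genes counted, 13 of them mRNAs of the mitochondrial genome and 100 nuclear. The nuclear genes were 83 subunits, 12 assembly factors and 5 annotated pseudogenes (Ndufa11b, Ndufb4c, Cox7c-ps1, Atp5l-ps1 and Atp5l-ps2), and 7 names ending in -ps were left out. The subunits divided into 36 of complex I, 4 of complex II, 8 of complex III, 18 of complex IV (with Ndufa4 and Ndufa4l2) and 17 of complex V.

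All mice were BALB/c males, between 6 and 8 weeks old, and every back was shaved and treated with depilatory cream. The control group, labelled blank, received no IMQ, the IMQ group received 62.5 mg of 5% (w/w) IMQ cream on the back each day for 5 days, and the LYS-High group received the same cream and LYS, a decoction of botanical drugs, by gavage at the higher of the study's doses. IMQ is a Toll-like receptor agonist that gives psoriasis-like lesions on mouse skin. Whole back skin was taken on day 13, with 3 libraries per group, and the label of skin was borne out by keratinocyte markers: the 7 basal markers summed to 2350, 2120 and 3140 CPM (counts scaled to a common library total, with TMM factors from edgeR) in the control libraries, to between 10300 and 12400 in IMQ and to between 7560 and 12900 in LYS-High. Median summed counts were 18123424 in control (17149506 to 19609878), 17005853 in IMQ (16915191 to 17988104) and 15877301 in LYS-High (14658645 to 16743869). Each library was taken as a separate mouse, as in the study's methods, and p-values measure only the spread between these libraries.

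The respiratory chain passes electrons from NADH (complex I) and succinate (complex II) through complexes III and IV to oxygen, and complex V uses the proton gradient so formed to make ATP. Complexes I, III, IV and V combine proteins encoded in mitochondrial DNA with proteins encoded in the nucleus, whereas complex II is entirely nuclear. The mitochondrial mRNAs are cut from long transcripts read from both strands of the mitochondrial genome, and their amounts therefore depend on other machinery than those of the nuclear genes. In skin, keratinocytes, dermal fat and the thin muscle beneath the dermis all carry this machinery, and muscle uses isoforms of complex IV subunits of its own.

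Several mitochondrial genes have a near-identical copy in the nuclear genome, and how it stands to the mRNA decides what a count of that gene can hold. GENCODE M21 (GRCm38) lists 7 pseudogenes side by side on the minus strand at chr1:24611535-24616197. The mRNAs mt-Co2, mt-Co3, mt-Atp6 and mt-Nd4l matched their copies there at 100% identity over at least 99.0% of their length. The mRNA mt-Nd3 matched Gm28438 over 99.1% of its length with 1 difference (T3C, with the mitochondrial base first, counted from 1 at the 5′ end of the mRNA). mt-Nd4 was covered for 63.6% of its length at 100% identity, and mt-Co1 for 31.3% at 99.79% identity (A1066T). mt-Atp8 has 43 of its 204 bases (21.1%), those it shares with mt-Atp6, in the copy Gm10925, and no annotated copy held the rest. Only annotated transcripts were searched. In the mitochondrial genome mt-Atp8 starts between mt-Co2 and mt-Atp6. The bases between their copies, from the end of Gm10925 (24614651) to the start of Gm28661 (24614885), were not read. The stretches below show how close the copies are: mt-Co2 and Gm28661 share every base of the stretch, so a read inside it matches both, while mt-Nd3 and Gm28438 differ at the base in capitals, as do mt-Co1 and Gm29216, so a read over that base can be placed.
mt-Co2: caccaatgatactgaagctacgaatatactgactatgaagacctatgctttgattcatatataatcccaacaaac
Gm28661: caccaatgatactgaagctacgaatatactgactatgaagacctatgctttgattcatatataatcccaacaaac
mt-Nd3: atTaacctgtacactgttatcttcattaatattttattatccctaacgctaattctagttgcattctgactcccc
Gm28438: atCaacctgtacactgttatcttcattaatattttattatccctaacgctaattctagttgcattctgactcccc
mt-Co1: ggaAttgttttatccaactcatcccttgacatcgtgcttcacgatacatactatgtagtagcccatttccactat
Gm29216: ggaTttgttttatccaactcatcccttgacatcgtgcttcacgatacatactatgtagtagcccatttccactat

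The mitochondrial mRNAs differed widely in counted level. In the deposited FPKM, which divide by gene length and library total, the 7 mRNAs without a full copy had means over the 9 libraries between 835 (mt-Nd6, a complex I subunit) and 8990 (mt-Co1, the catalytic core of complex IV). The other 6, the 5 with a full copy and mt-Atp8, had means between 0.0325 (mt-Atp8) and 88.0 (mt-Co2), with a median of 12.7. mt-Atp8 had 1 read in 1 LYS-High library and 0 in the other 8 libraries. mt-Nd3 had 37, 40 and 53 reads in the control libraries, and between 9 and 18 in the other libraries. How reads with several matching places were counted is not given in the sources used here, and its part in these low levels was not tested. Among the 83 nuclear subunits the median was 52.8 FPKM, from 0.496 (Ndufb2) to 342 (Cox6a1, the complex IV subunit 6a of most tissues). The highest nuclear member of each other complex was Ndufa2 at 109 FPKM for complex I, Sdhd at 81.2 for complex II, Uqcr10 at 193 for complex III and Atp5a1 at 273 for complex V. Gene length here counts all annotated exons, which equals the transcript length for the mitochondrial mRNAs but not for many nuclear genes. The order within a complex can therefore depend on the length used. For Atp5b it was 4237 bases beside a transcript of 1916, and its mean CPM was 1048 beside 849 for Atp5a1. Assembly factors were lower, with a median of 4.87 FPKM, and the pseudogenes lay between 0.0179 and 0.452 FPKM. For 10 nuclear subunits at least 40% of the transcript lay in a near-identical copy elsewhere or in another gene's exons, and their median of 62.5 FPKM stood beside 51.7 for the other 73.

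**Figure D1:**
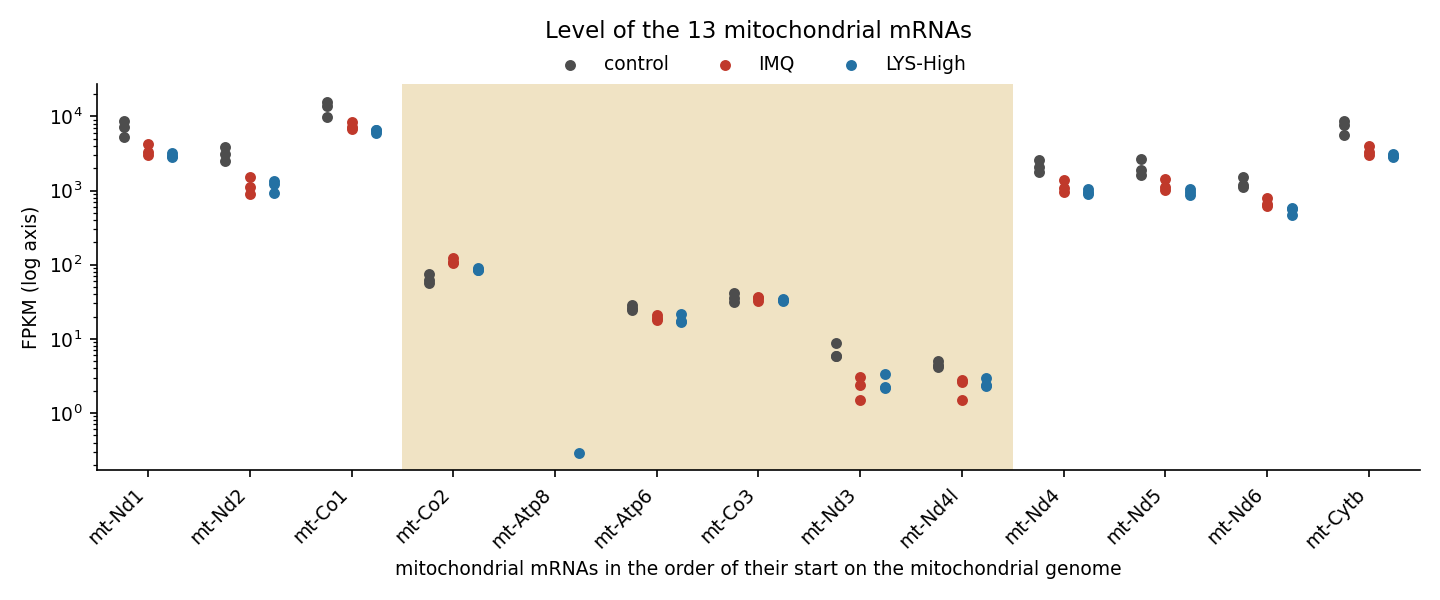
FPKM of the 13 mitochondrial mRNAs on a log axis, with each point a library, coloured by group. The shaded mRNAs are the 5 with a full copy in the chromosome 1 cluster and mt-Atp8, and their means stay at or below 88.0 FPKM, whereas the others reach 8990; values of 0 (mt-Atp8 in 8 libraries) are not drawn.

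The mitochondrial mRNAs took a smaller part of the library in IMQ and LYS-High skin than in control skin, whereas the direction for the nuclear genes in IMQ depended on the scaling. The 13 mRNAs held 5.59%, 4.73% and 3.53% of all counts in the control libraries, 2.82%, 2.31% and 2.13% in IMQ, and 1.93%, 2.15% and 2.12% in LYS-High. Every control library lay above every treated library, while the IMQ and LYS-High shares overlapped. The 100 nuclear genes held 1.20%, 1.27% and 1.18% of the control counts, 0.999%, 0.891% and 0.938% of the IMQ counts and 1.06%, 0.950% and 0.946% of the LYS-High counts. These shares too were lower in every treated library than in any control library, but on the TMM scale the nuclear sum was 10800 ± 862 CPM in control, 11000 ± 379 in IMQ and 9590 ± 972 in LYS-High (SD, n = 3). The mitochondrial sum was 41100 ± 10000, 27900 ± 2150 and 20000 ± 651 CPM on that scale.

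A ratio inside each library does not depend on how libraries are scaled to each other. The log2 ratio of summed mitochondrial to summed nuclear counts was 2.22, 1.90 and 1.58 in control, 1.50, 1.37 and 1.19 in IMQ, and 0.86, 1.18 and 1.17 in LYS-High. The groups followed each other downward without overlap, although the lowest IMQ library (1.19) and the highest LYS-High library (1.18) nearly touched, as did the lowest control (1.58) and the highest IMQ library (1.50). The means were 1.90 ± 0.32, 1.35 ± 0.158 and 1.07 ± 0.181 (SD, n = 3 each). The difference was -0.55 for IMQ against control, -0.29 for LYS-High against IMQ and -0.83 for LYS-High against control. Without LYS-High 1 the difference between LYS-High and IMQ was -0.18. No test was run on this ratio, since its members were chosen with results of these data known. mt-Co1 alone made up between 43.1% and 49.1% of the mitochondrial counts, and without it the differences were -0.64, -0.28 and -0.92. When every gene instead weighed the same (the mean of log2(CPM + 1)), the drop from control was -0.17 in IMQ and -0.42 in LYS-High, and leaving out the 5 mRNAs with a full copy and mt-Atp8 returned it to -0.48 and -0.85.

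**Figure D2:**
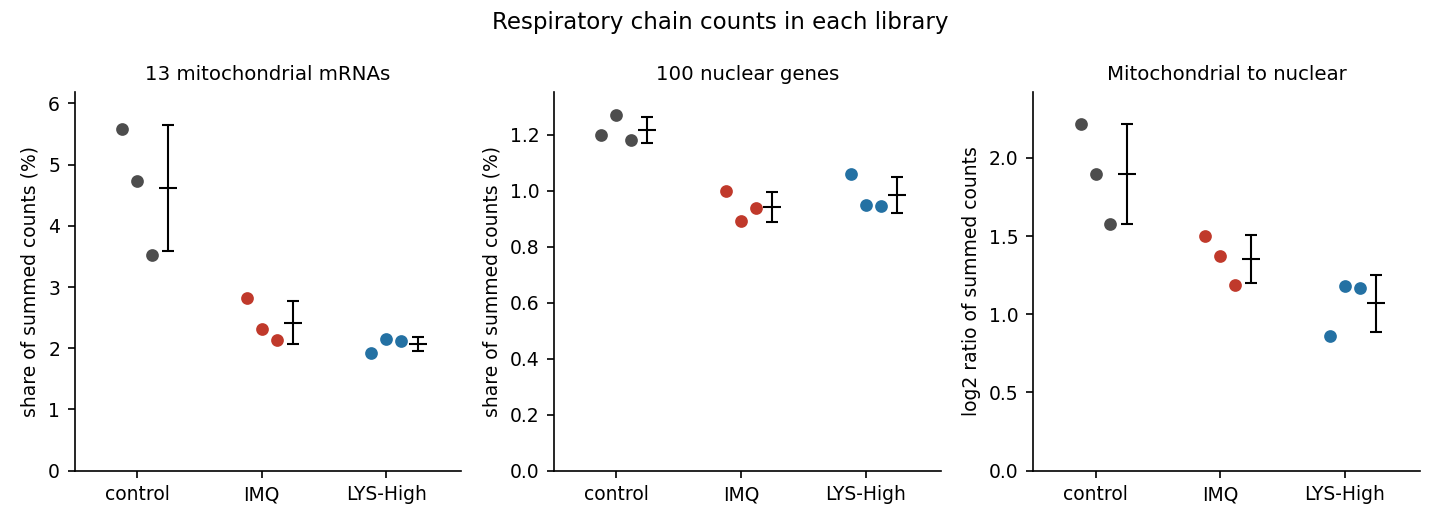
Percent of summed counts held by the 13 mitochondrial mRNAs and by the 100 nuclear genes, and the log2 ratio of these sums, with each point a library and the bar the mean ± SD (n = 3). The ratio steps down from a mean of 1.90 in control to 1.35 in IMQ and 1.07 in LYS-High.

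IMQ against control asks what the psoriasis-like model does to these genes. Of the 113 genes, 107 passed the filter on low counts (the 5 pseudogenes and mt-Atp8 did not), and 6 were called higher and 13 lower in IMQ by edgeR's quasi-likelihood test. A call needed a Benjamini-Hochberg adjusted p below 0.05 together with a log2 fold change beyond 0.58 either way. Over all 15976 genes tested, 24.1% were called higher and 26.9% lower, and the counts among the members were below those shares in both directions. Without control 2 the members called were 8 higher and 7 lower, beside 22.7% and 23.3% of all genes, and without IMQ 2 they were 6 and 8, beside 22.2% and 22.8%. At the adjusted p alone, 15 were higher and 31 lower, where 29.6% and 30.9% of all genes were, so the members lay below the background on the higher side and near it on the lower. The IMQ and control libraries did not overlap for 18 members on the higher side and 44 on the lower, where 31.6% and 38.9% of all genes did the same, so the members lay below the background on the higher side and close to it on the lower. The median log2 fold change was -0.47 over the 12 mitochondrial mRNAs tested, -0.03 over the 83 nuclear subunits and -0.21 over the assembly factors, beside -0.06 over all genes. Scaling by library totals alone moved the median of all genes to -0.51, that of the nuclear subunits to -0.48 and that of the mitochondrial mRNAs to -0.91, and it then called 3 members higher and 51 lower (2390 and 6854 of all genes, against 3854 and 4291). Relative to the median of all genes, that of the nuclear subunits stayed level and that of the mitochondrial mRNAs stayed lower under either scaling. The 3 genes called higher under both were mt-Co2, Ndufa4 and Ndufa4l2.

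**Figure D3:**
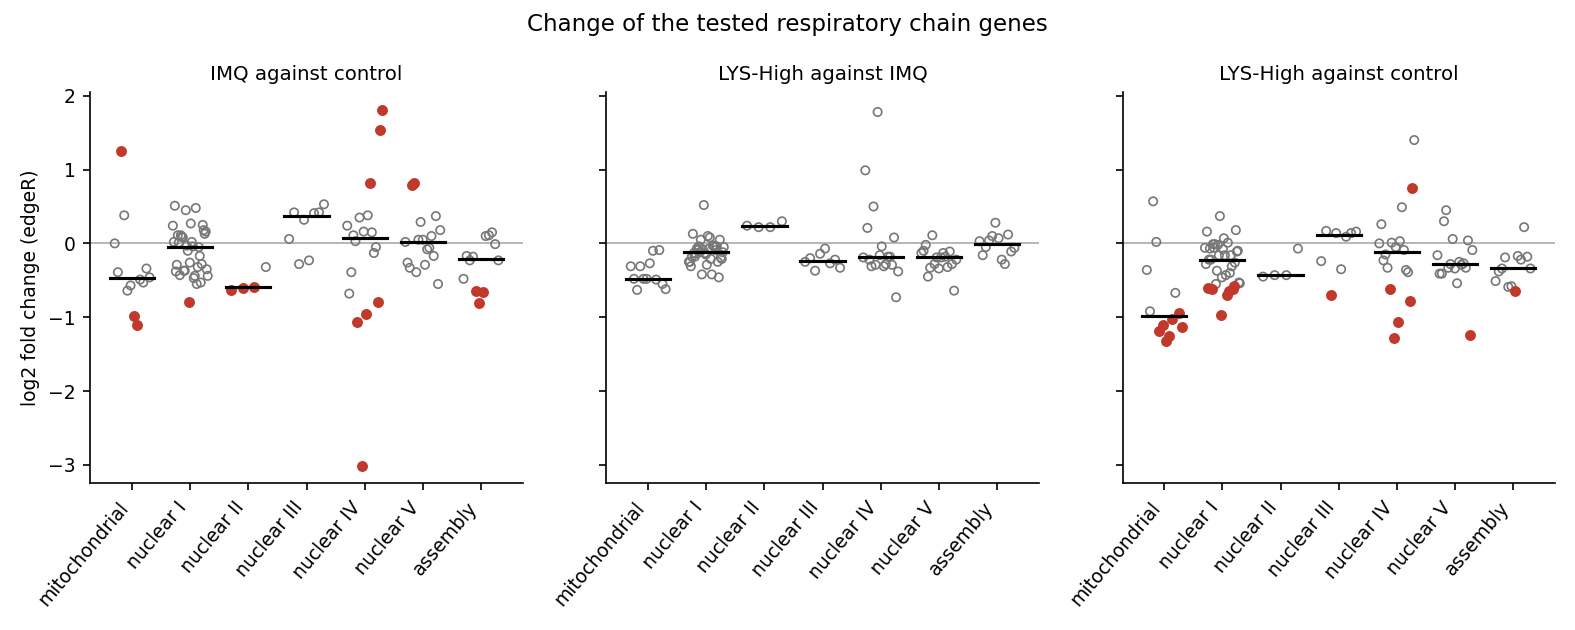
log2 fold change by edgeR of each tested gene in 3 comparisons, grouped as mitochondrial mRNAs, nuclear subunits by complex and assembly factors; filled points were called and lines are group medians. The mitochondrial medians are -0.47, -0.48 and -0.99, and no point is filled for LYS-High against IMQ.

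Among the mitochondrial mRNAs, mt-Nd2 fell furthest of those without a full copy. This complex I core subunit (chrM:3914-4951) had 3568, 2971 and 2178 CPM in control and 1682, 1399 and 1121 in IMQ, so all IMQ libraries lay below all control libraries (log2 fold change -0.99 ± 0.25 (SE), adjusted p = 0.0103 by edgeR). mt-Nd6, the complex I subunit read from the opposite strand (chrM:13552-14070), had 706, 579 and 490 CPM in control and 437, 413 and 389 in IMQ. Its groups did not overlap either, but the change of -0.46 ± 0.17 was under the fold threshold (adjusted p = 0.0424). The library kit was not stated to keep strand, so reads of mt-Nd6 and of transcripts running across it on the other strand cannot be told apart. mt-Nd1, mt-Nd4, mt-Nd5, mt-Cytb and mt-Co1 had log2 fold changes between -0.34 and -0.64 with adjusted p between 0.0699 and 0.322. mt-Co1 had 21616, 19963 and 12918 CPM in control and 13886, 13262 and 12702 in IMQ. Control 3, the control library with the lowest mitochondrial share, lay inside the IMQ range, and without it mt-Nd1 (-0.76), mt-Nd4 (-0.63) and mt-Cytb (-0.82) were called lower, with adjusted p between 0.0225 and 0.0384. mt-Cytb was also called by DESeq2 (-0.61, adjusted p = 0.00694) and by edgeR with all 9 libraries (0.0486) or no filter (0.0207). mt-Nd1 was called with no filter too (0.0394). With library totals alone mt-Nd1, mt-Nd4, mt-Nd5, mt-Cytb and mt-Co1 were all called lower.

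The mRNAs with a full copy did not move together. mt-Nd3 was called lower (-1.10 ± 0.36, adjusted p = 0.0292) on 53 reads or fewer per library, and leaving out any 1 library other than IMQ 3 brought its adjusted p to between 0.0529 and 0.101. mt-Co2, the complex IV subunit that takes electrons from cytochrome c (chrM:7013-7696), ran the other way, with 37.8, 36.1 and 43.3 CPM in control and 90.4, 90.2 and 87.6 in IMQ. Its groups were far apart, and it rose by 1.25 ± 0.11 (adjusted p = 6.8e-05). The copy Gm28661, identical to it over 681 bases, had 21.1, 18.5 and 16.7 CPM in control and 53.0, 58.7 and 49.8 in IMQ, which was higher in every IMQ library as well. Which of these loci gave the reads cannot be told apart. mt-Atp6, mt-Co3 and mt-Nd4l had changes of 0.00, 0.38 and -0.53 that did not pass the test.

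Complex II, which has no mitochondrial subunit and also serves the tricarboxylic acid cycle, was the complex whose nuclear genes lay lowest in IMQ. The flavoprotein subunit Sdha (chr13:74322254-74350280) had 259, 306 and 220.5 CPM in control and 186, 149 and 150 in IMQ (-0.63 ± 0.16, adjusted p = 0.00972 by edgeR). The iron-sulfur subunit Sdhb (chr4:140961203-140979193) had 131, 151 and 136 CPM against 90.4, 81.5 and 92.6 (-0.60 ± 0.11, adjusted p = 0.00221). The membrane anchor Sdhc (chr1:171127165-171150603) had 125, 134 and 111 CPM against 89.2, 73.4 and 73.1 (-0.59 ± 0.13, adjusted p = 0.00476). All 3 fell, with every IMQ library below every control library. Over all genes 26.9% were called lower, and 38.9% had every IMQ library below every control library. The other anchor, Sdhd (chr9:50596357-50603812), had 111, 118 and 96.0 CPM against 93.6, 81.8 and 74.9, which did not overlap but did not pass the test (-0.32 ± 0.13, adjusted p = 0.0637). The adjusted p of Sdha, Sdhb and Sdhc stayed at or below 0.0471 under every alternative run, but their calls stood just past the fold threshold. Without IMQ 2 or control 2 all 3 lay between -0.52 and -0.57 and were no longer called, as were Sdha and Sdhc without IMQ 3, and Sdhb and Sdhc by DESeq2 (-0.57 and -0.56). The 4 assembly factors named for complex II, Sdhaf1 to Sdhaf4, had changes between -0.23 and 0.15 and none passed.

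The promoters of nuclear members were searched for the motifs of 4 factors known from respiratory chain genes, in RefSeq windows (GRCm38.p6) from 250 bases before to 50 bases after the start. Of 95 nuclear genes without the pseudogenes, 79 matched a window by gene identifier or symbol. On either strand, the NRF1 motif GCGCATGC was found in 12 of the 79 (15.2%) and in 3.05% of all genes with a window. YY1's AAGATGGC was in 11 (13.9%, beside 3.19%), GABPA's CCGGAAGT in 5 (6.33%, beside 4.31%) and ESRRA's TCAAGGTCA in 2 (2.53%, beside 0.466%). None of these strings contains another. The windows of Sdhb (chr4:140961021-140961320, plus strand) and Sdhd (chr9:50603800-50604099, minus strand) are shown because they are complex II subunits with a match. The capitals mark an NRF1 motif on the reverse strand in Sdhb and an ESRRA motif on the reverse strand in Sdhd. Sdha had none of the 4 motifs in its window, and Sdhc was not among the members with a match. A match is a description of letters only.
Sdhb: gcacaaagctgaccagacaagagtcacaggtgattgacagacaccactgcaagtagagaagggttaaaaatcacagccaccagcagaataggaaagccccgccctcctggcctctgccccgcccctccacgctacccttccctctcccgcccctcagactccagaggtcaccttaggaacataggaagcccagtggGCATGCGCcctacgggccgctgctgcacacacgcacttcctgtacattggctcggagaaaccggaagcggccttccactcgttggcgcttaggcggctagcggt
Sdhd: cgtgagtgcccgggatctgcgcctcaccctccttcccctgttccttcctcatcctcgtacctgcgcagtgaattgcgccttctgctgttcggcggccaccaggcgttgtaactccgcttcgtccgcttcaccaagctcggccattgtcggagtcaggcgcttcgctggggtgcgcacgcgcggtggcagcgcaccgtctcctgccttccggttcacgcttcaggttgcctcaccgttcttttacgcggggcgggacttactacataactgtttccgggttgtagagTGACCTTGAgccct

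The other complexes split internally. Of the 36 nuclear complex I subunits only Ndufb3, an accessory subunit, was called (52.4 ± 14.6 CPM in control and 29.0 ± 4.11 in IMQ, -0.79 ± 0.21, adjusted p = 0.0123), and without IMQ 2 its adjusted p was 0.0529. At the adjusted p alone, 3 of the 36 were higher and 11 lower, beside the 29.6% and 30.9% of all genes, so the lower share was near the background and the higher below it. Complex III was called for none of its 8 nuclear subunits. At the adjusted p alone 3 of the 8 were higher, beside 29.6% of all genes: the Rieske protein Uqcrfs1 (0.41), the hinge protein Uqcrh (0.42) and Uqcrq (0.53). Uqcrb, at -0.28, was lower by the same measure. The complex III median of 0.37 was above that of all genes by edgeR's usual scaling, and with library totals alone it was -0.08 beside -0.51 for all genes. In complex V the delta subunit Atp5d (215 ± 10.7 to 357 ± 30.8 CPM, 0.79 ± 0.13, adjusted p = 0.00103) and the epsilon subunit Atp5e (135 ± 23.4 to 230 ± 33.5 CPM, 0.82 ± 0.17, adjusted p = 0.00394) were higher. Both belong to the central stalk of the enzyme. With library totals alone they were at 0.34 and 0.36, under the fold threshold. The head subunits Atp5a1 and Atp5b had values of 0.02 and -0.26, and the c-ring genes Atp5g1, Atp5g2 and Atp5g3 had -0.39, 0.05 and 0.29. None of these was called, and 2 of the 17 complex V subunits were called higher in all, beside 24.1% of all genes. Of the 12 assembly factors 3 were called lower, beside 26.9% of all genes. They were Ndufaf5, Ndufaf6 and Ndufaf7 of complex I, at -0.64, -0.81 and -0.66. Ndufaf5 stood at -0.53 without IMQ 1 and -0.55 without control 2 and was then not called.

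Ndufa4 and its paralogue Ndufa4l2 were the nuclear genes that rose most. Ndufa4, first assigned to complex I and now known as a complex IV subunit (chr6:11900292-11907497), had 223, 214 and 176 CPM in control, 465, 553 and 684 in IMQ and 387, 349 and 285 in LYS-High. The groups did not overlap in any comparison, with control lowest, IMQ highest and LYS-High between. It rose 1.53 ± 0.18 in IMQ against control (adjusted p = 0.00024 by edgeR). Ndufa4l2, a hypoxia-inducible relative (chr10:127514967-127517154), had 35.6, 37.5 and 47.2 CPM in control and 101, 137 and 167 in IMQ (1.81 ± 0.20, adjusted p = 0.00018). In LYS-High it had 188, 67.6 and 55.1 CPM, with LYS-High 1 above every IMQ library and the others between control and IMQ. Cox7a2l, which helps join complexes III and IV, also rose (143 ± 7.34 to 243 ± 52.0 CPM, 0.82 ± 0.16, adjusted p = 0.00306), but only by 0.37 with library totals alone, under the fold threshold.

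**Figure D4:**
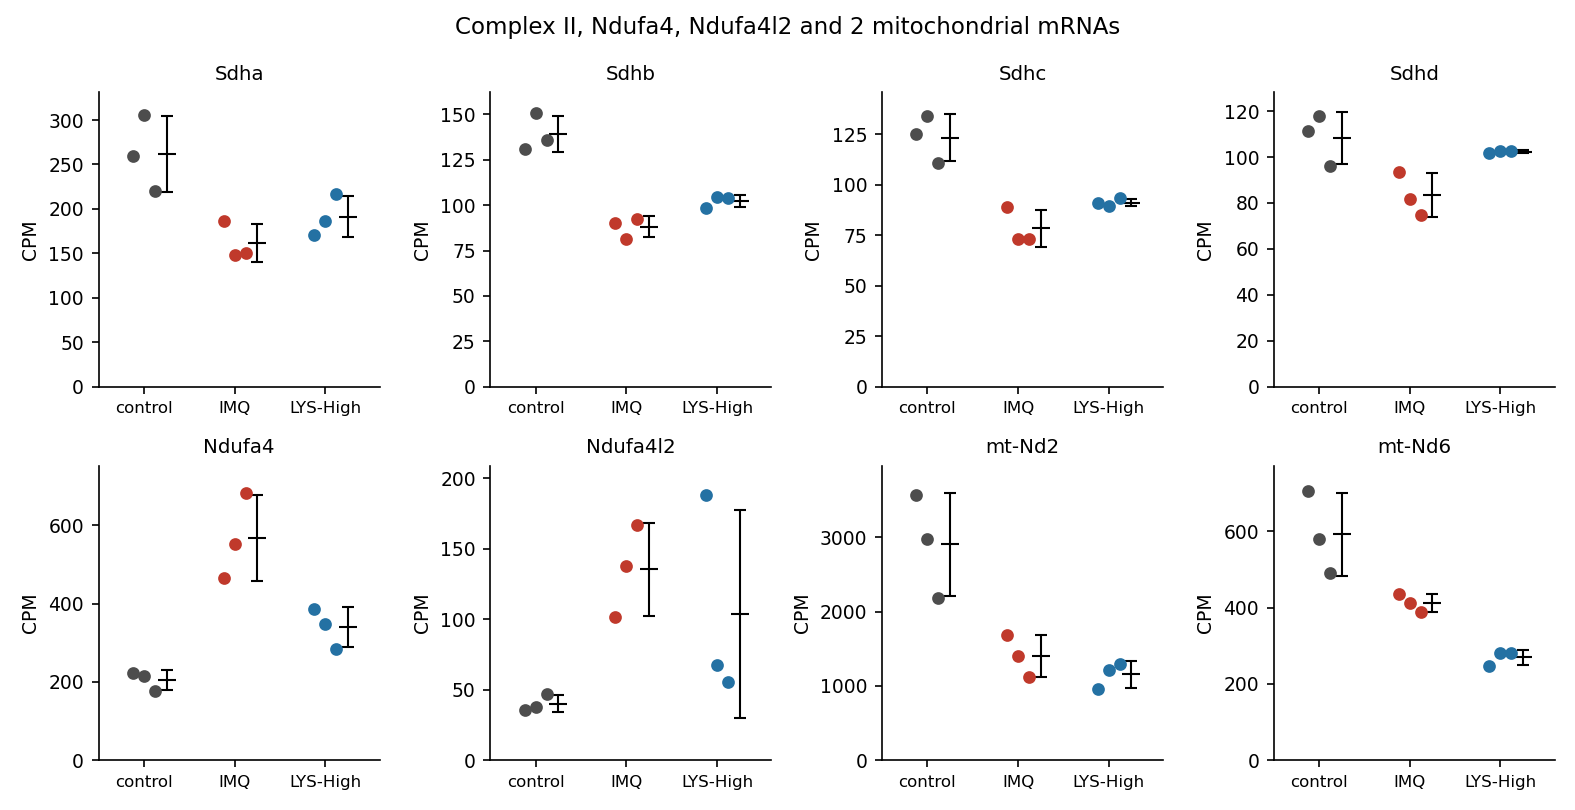
CPM of the 4 complex II subunits, Ndufa4, Ndufa4l2, mt-Nd2 and mt-Nd6 in each library (points) with the mean ± SD of each group (bars, n = 3). The Sdh genes are lowest in IMQ, Ndufa4 is highest there, and mt-Nd6 steps down from control to IMQ to LYS-High.

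The complex IV isoforms that belong to striated muscle fell in IMQ skin, and so did muscle markers. Cox6a2 had 62.6, 71.3 and 51.6 CPM in control and 40.03, 25.3 and 19.6 in IMQ (-1.06 ± 0.25, adjusted p = 0.00739 by edgeR). Cox8b fell by 0.80 ± 0.17 (adjusted p = 0.00425) and Cox7a1 by 0.95 ± 0.31 (adjusted p = 0.0266) on the log2 scale. In all 3 every IMQ library lay below every control library, but Cox7a1 lost its call without IMQ 2, control 1 or control 2 (adjusted p between 0.0692 and 0.0799). The isoforms of most tissues were not called, with values of 0.03 for Cox6a1, -0.05 for Cox8a and 0.38 for Cox7a2. As a share of the FPKM of its pair, Cox6a2 went from 19.7% ± 0.567 in control to 10.3% ± 3.81 in IMQ, Cox7a1 from 16.7% ± 2.37 to 7.39% ± 3.53, and Cox8b from 26.1% ± 4.03 to 17.2% ± 3.71 (SD, n = 3). Cox6b2, an isoform known from testis, was scarce at 2.87 ± 0.733 CPM in control and 0.337 ± 0.0349 in IMQ. It had 49, 53 and 75 reads in the control libraries and 5 in each IMQ library, and as it passed the filter on low counts through the control group, its place among the 13 members called lower is no support for a change. The pairs Cox4i1 and Cox4i2 and Cox5a and Cox5b were not called, at 0.24, -0.68, -0.39 and 0.11, nor were Cox6b1 (0.35), Cox6c (0.16), Cox7b (0.15) and Cox7c (-0.13).

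Of 21 skeletal muscle markers, 14 were called lower in IMQ and none higher, beside 26.9% and 24.1% of all genes. Their summed level was 16600, 16600 and 15200 CPM in control, 8190, 7160 and 2990 in IMQ and 7070, 10500 and 14600 in LYS-High. The most abundant was Acta1 (log2 fold change -1.48 in IMQ), and none was at 0 in every library. All 12 adipocyte markers were also lower in IMQ, with sums of 9870, 14500 and 5850 CPM in control, 1880, 982 and 712 in IMQ and 1850, 2810 and 4520 in LYS-High, and Cfd was their most abundant gene. Of the 5 brown adipocyte markers tested, 4 were lower, and Cox8b and Ppargc1a belong to that list. Fibroblast markers (7 of 7) and sebaceous gland markers (8 of 8) were lower, whereas suprabasal (7 of 7) and basal keratinocyte markers (6 of 7) were higher. All these shares were above the 26.9% of all genes called lower or the 24.1% called higher. Of 8 neutrophil markers tested 6 were higher and 1 lower, with sums of 46.8, 40.6 and 92.3 CPM in control and between 20600 and 27700 in IMQ. Any neutrophil marker that passed the filter only through the IMQ group had to differ. Of 11 hair follicle markers 10 were lower, with sums of 3720, 2440 and 5300 CPM in control and between 36.4 and 46.0 in IMQ, but only 3 of the 11 passed the filter on low counts between IMQ and LYS-High, so the others entered through the control group and had to differ. The part of these shifts in any change of the respiratory chain genes was not tested, and in whole skin, fewer cells of a type and less RNA per cell cannot be told apart.

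**Figure D5:**
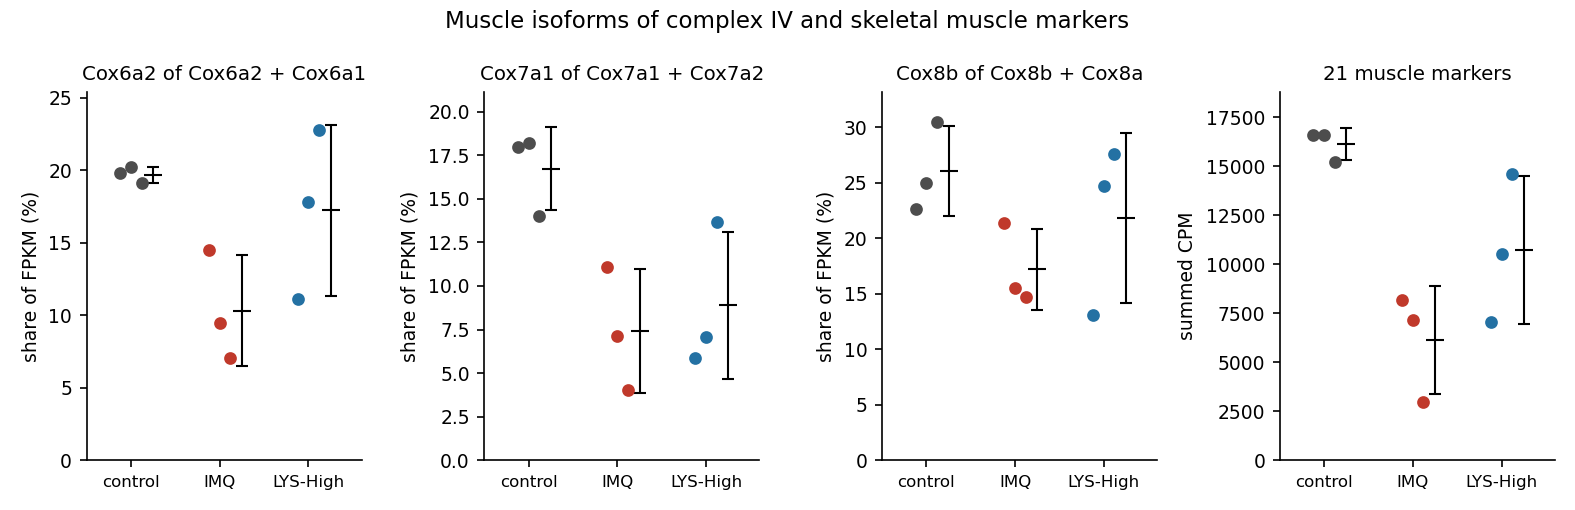
Share of the muscle isoform in the FPKM of its pair (%) for 3 complex IV subunits, and summed CPM of the 21 skeletal muscle markers, with each point a library and the bar the mean ± SD (n = 3). Each is lower in all IMQ libraries than in all control libraries, and the LYS-High libraries spread widely, from 7070 to 14600 CPM for the markers.

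LYS-High against IMQ asks what LYS changes in the model. It uses the same IMQ libraries as IMQ against control, so a deviation of those libraries moves the 2 changes in opposite directions. None of the 107 members tested was called by edgeR (background 0.0% of 15460 genes, since none of any kind passed), and the smallest adjusted p among members was 0.0591, for mt-Nd6. At an unadjusted p under 0.05, 3 members were higher and 12 lower, and over all genes 35.2% passed that level. DESeq2 called 1 member higher and 4 lower, where it called 13.3% and 9.56% of all genes. With all 9 libraries in the fit, edgeR called 2 higher and 4 lower, beside 9.93% and 8.62% of all genes. Without LYS-High 1 it called 1 member higher and 7 lower, beside 14.9% and 11.9% of all genes, and without IMQ 1 it called none higher and 2 lower, beside 6.8% and 5.03%. The members' counts were below the background in each of these fits.

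All 12 mitochondrial mRNAs tested had values below 0 for LYS-High against IMQ, none past the test, with a median log2 fold change of -0.48, beside -0.16 for the nuclear subunits and 0.04 for all genes. With library totals alone these medians were -0.23, 0.10 and 0.29, so the nuclear subunits changed sign but stayed below all genes, and mt-Nd3 and mt-Nd4l turned positive (0.14 and 0.17). For 8 of the 12 every LYS-High library lay below every IMQ library, and for 18 of the 95 nuclear genes tested, while 6 of those 95 lay above; 19.2% of all genes did so on the higher side and 19.3% on the lower. mt-Nd6 had 437, 413 and 389 CPM in IMQ and 246, 280 and 281 in LYS-High (-0.62 ± 0.13), with no overlap. mt-Co2 had 90.4, 90.2 and 87.6 CPM in IMQ and 58.4, 60.0 and 54.2 in LYS-High (-0.63 ± 0.10, adjusted p = 0.0591), which lay between control and IMQ. Its copy Gm28661 had 42.8, 40.3 and 30.2 CPM in LYS-High. With all 9 libraries in the fit the adjusted p was 0.025 for mt-Nd6 and 0.0206 for mt-Co2, and without LYS-High 1 it was 0.0279 and 0.0118, although mt-Nd6 then stood at -0.56, under the fold threshold.

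Nuclear genes differed by complex in sign. All 4 complex II subunits had higher values in LYS-High than in IMQ, by 0.22 to 0.30 on the log2 scale. For Sdhb, Sdhc and Sdhd the groups did not overlap, where 19.2% of all genes lay apart on the higher side. Sdhd had 93.6, 81.8 and 74.9 CPM in IMQ and 102, 103 and 103 in LYS-High. None of the 4 passed the test (adjusted p between 0.135 and 0.291). All 8 complex III subunits and 16 of 17 complex V subunits had lower values, where 7281 of 15460 genes were lower and 8179 higher. Their medians were -0.23 and -0.19, which became 0.02 and 0.06 with library totals alone. The lowest nuclear changes were those of Ndufa4 (-0.73 ± 0.20, adjusted p = 0.0654), Atp5o (-0.64), Ndufs6 (-0.46), Atp5d (-0.45), and Ndufc1 (-0.42). The highest were those of Cox6b2 (1.78), Cox4i2 (0.99), Ndufb2 (0.52), Cox6a2 (0.50) and Sdhd. Cox6b2 rested on 5 reads in each IMQ library and 18, 18 and 21 in LYS-High, and passed the filter through the LYS-High libraries. Without LYS-High 1 the adjusted p of Ndufa4 was 0.0288, and Ndufa4l2 was called lower (-1.14, adjusted p = 0.0159). Other gene entries overlap 47.9% of the exon length of Atp5o, so its count of 13.3 ± 1.70 CPM in control is uncertain.

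LYS-High against control compares the treated model with skin that had no IMQ. Here 1 member was called higher and 21 lower by edgeR, where 15.1% of 16003 genes were called higher and 12.9% lower. The groups did not overlap for 6 members on the higher side and 49 on the lower, and for 25.0% and 25.5% of all genes. By both measures the members lay below the background on the higher side and above it on the lower. The lower calls were 7 of the 12 mitochondrial mRNAs and 14 of the 95 nuclear genes tested. The nuclear share was near the 12.9% of all genes. The median log2 fold change was -0.99 over 12 mitochondrial mRNAs, -0.23 over 83 nuclear subunits and -0.01 over all genes (-1.12, -0.37 and -0.15 with library totals alone). This comparison uses the same control libraries as IMQ against control and the same LYS-High libraries as LYS-High against IMQ.

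Of the 12 mitochondrial mRNAs, 7 were called lower. mt-Nd2 had 957, 1215 and 1300 CPM in LYS-High against 3568, 2971 and 2178 in control (-1.32 ± 0.24, adjusted p = 0.00703), and mt-Nd6 changed by -1.13 ± 0.18 (adjusted p = 0.00402). mt-Cytb, the mitochondrial subunit of complex III, had 3240, 3384 and 3142 CPM against 8798, 8042 and 5394 (-1.18 ± 0.26, adjusted p = 0.0141). mt-Nd1 (-1.10), mt-Nd3 (-1.25), mt-Nd4 (-1.03) and mt-Nd5 (-0.94) were called too, and mt-Co1 missed the threshold (-0.92 ± 0.30, adjusted p = 0.0502). mt-Co1 was called lower by DESeq2 (-0.92, adjusted p = 0.000216). It was also called by edgeR with all 9 libraries (0.0322), with no filter (0.0167) and with library totals alone (0.0172). Among left-out libraries it was called without LYS-High 1 (0.0338) or control 3 (0.0324). For all 7 mRNAs without a full copy every LYS-High library lay below every control library. mt-Co2 was higher, with an adjusted p of 0.0154, but at 0.57 it missed the fold threshold. The calls of mt-Nd2 and mt-Nd6 held without any 1 library, whereas the adjusted p without LYS-High 2 was 0.0655 for mt-Nd1, 0.0554 for mt-Nd4, 0.074 for mt-Nd5 and 0.0612 for mt-Cytb, and without control 1 it was 0.0662, 0.082 and 0.0555 for mt-Nd1, mt-Nd5 and mt-Cytb. mt-Nd1 and mt-Nd5 also missed without control 2 (0.0552 and 0.0589), and mt-Nd3 missed without any 1 library but LYS-High 1.

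Ndufa4 was the member called higher (0.75 ± 0.18, adjusted p = 0.0197). Ndufa4l2 stood at 1.40 ± 0.46 (adjusted p = 0.0523) and was called without LYS-High 1 (0.61, adjusted p = 0.0264) or LYS-High 3 (1.72, adjusted p = 0.0154). Of the 95 nuclear genes tested 14 were called lower, and of the 36 nuclear complex I subunits 7, beside 12.9% of all genes. The complex I subunits were Ndufb3 (-0.97), Ndufb9 (-0.70), Ndufc2 (-0.64), Ndufs4 (-0.62), Ndufa5 (-0.62), Ndufa12 (-0.61) and Ndufs5 (-0.58). Ndufc2 was among the tightest, at 66.0, 67.5 and 65.6 CPM in control, 44.8, 38.7 and 46.4 in IMQ and 42.9, 44.0 and 40.2 in LYS-High. Both treated groups lay below control and overlapped each other. Others called lower were Uqcrb (-0.70), Atp5o (-1.24), Cox6a2 (-0.62), Cox6b2 (-1.28), Cox7a1 (-1.06), Cox8b (-0.78) and the assembly factor Ndufaf7 (-0.64). Of the complex II subunits none was called, with values of -0.45, -0.43, -0.43 and -0.07 for Sdha, Sdhb, Sdhc and Sdhd. Leaving out LYS-High 2, control 1 or control 2 left 6, 9 and 10 members called, all lower, beside 7.02%, 6.6% and 8.05% of all genes called lower and 10.8%, 9.2% and 9.93% higher. Without LYS-High 2 the members thus lay below the background on the lower side too. In these 3 fits Ndufa4 had an adjusted p of 0.0655, 0.051 and 0.0532 (0.0713 without control 3). Of the 14 nuclear genes, Atp5o, Uqcrb and Ndufb9 were called whichever library was left out. Their counts are not all their own, since 62.8% of the Uqcrb transcript lies in a near-identical copy elsewhere. Other gene entries overlap 47.9% of the exon length of Atp5o and 19.5% of that of Ndufb9. Ndufa5 was lost without LYS-High 2 (adjusted p = 0.0509), and Ndufc2 missed only the fold threshold without LYS-High 3. The other 9 were lost without LYS-High 2 and without at least 1 control library, with adjusted p between 0.0507 and 0.165.

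The regulators of these genes did not move in 1 direction. Of 14 listed, 5 were called higher and 2 lower in IMQ against control by edgeR, beside 24.1% and 26.9% of all genes. Ppard, a fatty acid receptor, rose most, with 37.6, 39.6 and 40.4 CPM in control, 195, 265 and 209 in IMQ and 180, 151 and 102 in LYS-High (2.57 ± 0.15 in IMQ, adjusted p = 1.4e-05). Perm1, a muscle-enriched cofactor, rose by 2.19 ± 0.14 (adjusted p = 1.9e-05) and Esrra, the estrogen-related receptor that drives respiratory chain genes, by 1.55 ± 0.13 (adjusted p = 5.3e-05). Pprc1 (0.97) and Yy1 (0.61) were the others called higher, but with library totals alone they stood at 0.51 and 0.16, under the fold threshold, as did Yy1 without IMQ 2 or control 2 (0.57). Ppara (-1.17) and Ppargc1a (-1.11), the coactivator known for mitochondrial biogenesis, fell. Ppargc1a had 4.54, 5.15 and 5.20 CPM in control, 3.32, 1.85 and 1.36 in IMQ and 2.62, 15.1 and 7.36 in LYS-High, where LYS-High 1 lay within the IMQ range and the others above every control library. Without IMQ 2, control 2 or control 3 its adjusted p in IMQ against control was 0.0695, 0.0559 and 0.055. Nrf1 and Gabpa, at 0.15 and -0.20, were not called. No regulator was called for LYS-High against IMQ by edgeR on the 6 libraries compared. With all 9 libraries in the fit 1 of the 14 was called higher and 2 lower, beside 9.93% and 8.62% of all genes. For LYS-High against control 4 were higher (Ppard, Perm1, Esrra and Pprc1) and 1 lower (Ppara), beside 15.1% and 12.9% of all genes. Of these, Pprc1 and Ppara were not called without LYS-High 2, control 1 or control 2, with adjusted p between 0.0695 and 0.106, and Ppara not without control 3 (0.0746).

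Genes that transcribe and copy mitochondrial DNA or process its RNA were called in both directions. Of 26 tested for transcription and RNA stability, Tbrg4 was called higher in IMQ (0.67) and Mterf2, Hsd17b10 (-1.06), Fastkd1 (-0.89) and Pnpt1 (-0.74) lower, with a list median of -0.10. Tfam, which packages the mitochondrial genome and starts its transcription, had 36.5, 36.2 and 37.8 CPM in control, 26.3, 23.5 and 23.1 in IMQ and 22.8, 25.6 and 25.8 in LYS-High. It was below control in all treated libraries, at -0.54 ± 0.11 in IMQ (adjusted p = 0.00413) and -0.57 ± 0.12 in LYS-High (adjusted p = 0.0109), just inside the fold threshold. The mitochondrial RNA polymerase Polrmt stood at 0.44 ± 0.12 in IMQ (adjusted p = 0.0133) and at -0.02 with library totals alone. Of 14 genes for replication, Tk2 (0.69) and Exog (0.61) were higher and Mgme1 (-1.06) and Rrm2b (-0.70) lower. In both lists the counts were below the 24.1% and 26.9% of all genes called higher and lower. With library totals alone Tbrg4, Tk2 and Exog stood at 0.22, 0.24 and 0.17, under the fold threshold. Mterf2 was not called without IMQ 2, control 1 or control 2 (adjusted p between 0.0591 and 0.0603), Exog not without IMQ 2, control 1 or control 3 (between 0.0574 and 0.0897), and Rrm2b not without IMQ 3 (-0.49) or control 2 (adjusted p = 0.0519). Against control, LYS-High skin had lower Tfb1m (-0.91) and Hsd17b10 (-0.72), each with an adjusted p of 0.014, which was between 0.0553 and 0.0597 without LYS-High 2 or control 1.

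Pathways that feed the chain divided. Of 18 genes of the tricarboxylic acid cycle and pyruvate carboxylation, 10 were called lower in IMQ against control and none higher (median -0.71, beside -0.06 over all genes), and 6 were lower in LYS-High against control (median -0.51, beside -0.01 and 12.9% of all genes). The most abundant, Cs, stood at -0.04, while Pcx fell by 2.19 on the log2 scale in IMQ. Of 18 glycolysis genes, 11 were higher in IMQ and none lower (median 0.74), including Pkm (0.74), while the most abundant, Aldoa, stood at 0.08. With library totals alone the glycolysis median was 0.29 and that of the cycle -1.14, beside -0.51 over all genes. Cytochrome c (Cycs) fell by 0.69 on the log2 scale. It was 1 of 2 genes called lower among 10 other chain genes, of which 1 was called higher. Fatty acid oxidation had 3 of 13 lower, and import and outer membrane genes 2 of 23 in each direction. Among 77 mitochondrial ribosomal proteins 3 were higher and 4 lower, with a median of 0.00, whereas 62 of 84 cytosolic ribosomal proteins were higher and 2 lower (median 0.74, or 0.28 with library totals alone). Of 41 assembly factors outside the naming rule, 5 were higher and 5 lower. Over all genes 24.1% were called higher and 26.9% lower. The mitochondrial ribosomal, import, assembly and other chain lists were below this background in both directions. Glycolysis and cytosolic ribosomal proteins were above it on the higher side, and the tricarboxylic acid cycle was above it on the lower. By edgeR on the 6 libraries compared, no gene of these lists was called for LYS-High against IMQ, and no gene at all was. With all 9 libraries in the fit, 2 assembly factors, 2 mitochondrial and 6 cytosolic ribosomal proteins were called lower, beside 8.62% of all genes. None of these lists then had a gene called higher, beside 9.93% of all genes.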

How the data were processed

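RNA-seq of whole back skin was analysed in 9 libraries, 3 per group. The deposited table holds raw read counts per gene and, beside them, FPKM computed by the authors. The submitters' processing notes name HISAT2, HTSeq 0.13.5 and GRCm38, while counting options, strand and annotation are not given in the sources used here. Replicates were not pooled by the authors. The gene length implied by counts and FPKM matched the summed exons of GENCODE M21 within 1 base for 98.0% of 16033 genes. Counts were tested with edgeR 4.0.16 (limma 3.58.1, R 4.3.3) by the quasi-likelihood test after filterByExpr and TMM scaling, with only the 6 libraries compared in each fit and Benjamini-Hochberg adjustment over all genes tested. DESeq2 1.42.0, other scalings, all 9 libraries in a fit, no filter, replicate blocks and left-out libraries were alternatives. CPM were TMM-scaled, and shares and ratios used raw counts. Copies were found with blastn 2.17.0 at 98% identity or more. Depth ranged from 14658645 to 19609878 summed counts. The scripts were tested on simulated data. Members and lists were chosen with earlier results of these data known. Genes were named if mitochondrial, among the 5 highest or lowest nuclear changes of a comparison at a mean CPM of at least 1, a listed isoform, or the highest of a complex. Others are named because they were called or belong to a list. Mitochondrial rRNAs and tRNAs and the muscle marker Tnnc2 were not analysed here. Same-numbered libraries did not deviate together (r between -0.363 and 0.138).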

Additional observations from a re-analysis of the deposited data

Results flagged for a closer look

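Reads were also assigned to Gm28661, the chromosome 1 copy of mt-Co2, which lies outside the naming rule, and this signal was above that of the control libraries in both treated groups. Its mean was 18.8 CPM in control, 53.8 in IMQ and 37.8 in LYS-High. Every IMQ and LYS-High library lay above every control library, as for mt-Co2 itself, and no test was run on it. Another copy, Gm29216, had 132 CPM in control 3 and between 6.50 and 23.8 in the other libraries.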

How the results depend on the processing

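Of the respiratory chain genes, 19 were called for IMQ against control, and 54 with library totals only, 46 at the adjusted p alone, 43 at the adjusted p alone with all 9 libraries in a single fit, 6 at an absolute log2 fold change over 1, and 14 to 24 when a library was left out. For LYS-High against IMQ none was called, but 5 by DESeq2, 6 with all 9 libraries (9 at the adjusted p alone), 3 with no filter on low counts, and 0 to 8 when a library was left out. For LYS-High against control 22 were called, and 11 with the replicate block, 9 at an absolute log2 fold change over 1, 39 at the adjusted p alone with all 9 libraries, and 6 to 29 when a library was left out. The replicate block left the other counts at 19 and 0, and the numbers did not pair the libraries.

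The log2 ratio of mitochondrial to nuclear mRNA, -0.55, -0.29 and -0.83, kept its direction under every alternative run. The mean of log2(CPM + 1) over genes gave -0.17 for IMQ against control and -0.42 for LYS-High against control. Left-out libraries gave -0.71 to -0.39, -0.37 to -0.18 and -0.99 to -0.67. With library totals only, 36 of the 107 members tested for IMQ against control turned from above 0 to below it, 51 turned from below 0 to above it for LYS-High against IMQ, and 13 turned negative for LYS-High against control. None of these was called, and 19 of the 36 had an adjusted p below 0.05 under 1 of the 2 scalings. Of these 19 the members followed by name were Uqcrfs1 (-0.04), Uqcrh (-0.04), Atp5a1 (-0.42), Atp5g2 (-0.40), Cox6a1 (-0.42), Cox6b1 (-0.10), Cox7a2 (-0.07), Ndufa2 (-0.35) and Uqcr10 (-0.39). Polrmt, not a member, turned as well (-0.02). Beyond these, single genes passed to an adjusted p of 0.05 or more in 206 gene and alternative pairs and to one below it in 149. Alternatives without the 5 mRNAs with a full copy and mt-Atp8, without Ndufa4 and Ndufa4l2, or with all 9 libraries at the adjusted p alone were chosen after seeing the data. The ratio with mitochondrial rRNAs was not run. With 3 libraries per group and 1 or no counts for mt-Atp8, its change could not be measured.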

Other observations

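Of the 7 names ending in -ps that the naming rule left out, 2 were counted at levels like those of subunits. Ndufb1-ps had 45.5, 48.3 and 41.8 CPM in control, 40.4, 47.3 and 45.7 in IMQ and 34.3, 31.4 and 33.6 in LYS-High, with all LYS-High libraries below the rest. Ndufa12-ps had 16.5 CPM on average in control, 13.8 in IMQ and 12.6 in LYS-High. Ndufs5-ps and Cox5b-ps were scarcer, with mean levels of 2.53 and 1.64 CPM in control, 0.393 and 0.159 in IMQ and 0.279 and 0.264 in LYS-High. Macrophage markers summed to 1850, 1550 and 1330 CPM in control, 932, 802 and 704 in IMQ and 1220, 2620 and 3190 in LYS-High, and 5 of 8 were called lower in IMQ against control. All 9 proliferation markers were lower in IMQ, 5 of 6 endothelial markers were lower, and 5 of 8 T cell markers were higher. The proliferation markers include Mki67 and Pcna at the RNA level, whereas the study reports their proteins, Ki67 and PCNA, as higher in IMQ skin. Over all genes, 26.9% were called lower and 24.1% higher in this comparison.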
